A study of Mus musculus with 10 samples.

Results

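The 6 chemokine genes examined were Cxcl14, Cxcl12, Cxcl16, Ccl27a, Ccl20 and Ccl17, out of 17983 genes listed in at least 1 of 10 libraries. They were taken by name as chemokines that epidermal cells make. Cxcl14 was chosen by its measured level, lower under oil/acetone than under water, and the others to stand beside it, so the differences between treatments are given for these 6 genes as a description, with no test. Of the 6, 5 were listed in every library and passed the filter on low values (10 or more normalised counts in at least 2 libraries), and Ccl17 was listed in 7 libraries.

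RNA was sequenced from epidermal keratinocytes of mouse back skin. Control mice are labelled wild type, and knockout mice are labelled Gsdma1 KO/KO; Gsdma3 fx/fx; K14-Cre, where K14-Cre deletes the floxed Gsdma3 in keratinocytes and other cells that use the keratin 14 promoter. The back skin of both genotypes was rubbed 2 times a day for 3 days, either with acetone and olive oil mixed 4 to 1 (called oil/acetone here) or with water, and was collected on day 5. The groups were control under oil/acetone (n = 3), control under water (n = 2), knockout under oil/acetone (n = 3) and knockout under water (n = 2). Age is not given in the sources used here, and the labels tie no library to an animal of its own, so all p-values rest on a spread between libraries that could be technical in part.

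Chemokines are small secreted proteins that attract cells bearing a matching receptor. Resting epidermis makes CXCL14 steadily, while CCL20 is a classic inducible product of keratinocytes exposed to inflammatory cytokines and attracts cells carrying CCR6. CCL27, made by keratinocytes, attracts skin-homing T cells through CCR10, and CCL17 attracts such cells through CCR4. CXCL16 is made as a membrane-bound protein that proteases can release, and it binds CXCR6. CXCL12, best known as a product of stromal cells, binds CXCR4 and the scavenging receptor ACKR3.

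Each library held 15914663 to 21812292 reads. Values are normalised read counts, the authors' reads divided by a size factor for the library. Reads of Gsdma3 numbered 65 to 302 in each control library and 0 to 3 in each knockout library, whereas Gsdma, the gene the labels call Gsdma1, had 140 to 939 reads in each knockout library and 208 to 666 in each control library. Loss of part of Gsdma cannot be read from a count over the whole gene. The 4 Y-linked genes Ddx3y, Eif2s3y, Uty and Kdm5d together reached 3583 to 4967 in each of the 6 oil/acetone libraries and were at 0 in all 4 water libraries, so treatment and the sex of the animals cannot be told apart in any comparison of oil/acetone with water below. All 8 markers of interfollicular keratinocytes were listed, with a summed level of 630729 to 692802 in the water libraries and 732683 to 1040870 in the oil/acetone libraries. Most of that sum was Krt5, Krt14, Krt1 and Krt10. Of the 8 differences of oil/acetone minus water, 7 were positive in controls and 5 in knockouts. In knockouts Trp63 (10006 against 19285 on average), Itga6 (11237 against 18511) and Dsg1a (12341 against 17223) were lower under oil/acetone.

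Upstream sequences are shown for Cxcl14 and Ccl20, because they are the genes with the smallest and the largest spread between libraries of a group among the 5 genes tested. They are the 250 bases before the RefSeq start on GRCm38.p6, written 5′ to 3′ on the gene's own strand. Entries were found for 5 of the 6 genes. Capitals mark matches to 4 motifs searched on both strands, which were picked after the sequences had been seen: the TATA box core TATAA, the GC box GGGCGG, the NF-kB form (GGG, any 2 bases, TTTCC) and the AP-1 form TGANTCA. The Cxcl14 sequence lies at chr13:56296552-56296801 on the minus strand, and the Ccl20 sequence at chr1:83116516-83116765 on the plus strand.
Cxcl14: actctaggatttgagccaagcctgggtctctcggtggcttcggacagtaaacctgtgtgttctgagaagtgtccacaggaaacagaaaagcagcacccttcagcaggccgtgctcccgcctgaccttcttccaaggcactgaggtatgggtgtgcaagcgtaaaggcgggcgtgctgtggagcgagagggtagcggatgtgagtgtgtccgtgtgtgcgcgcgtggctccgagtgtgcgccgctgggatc
Ccl20: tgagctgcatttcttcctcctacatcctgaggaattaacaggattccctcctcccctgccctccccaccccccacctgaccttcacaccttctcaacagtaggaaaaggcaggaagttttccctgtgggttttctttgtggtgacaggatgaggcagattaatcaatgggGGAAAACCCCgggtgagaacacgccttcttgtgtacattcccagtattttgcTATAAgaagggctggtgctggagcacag
The Cxcl14 sequence was 59.6% G and C, against a median of 52.4% over 32851 promoters, held 16 CG pairs and matched none of the 4 motifs. The Ccl20 sequence was 51.2% G and C with 2 CG pairs. It held TATAA 28 bases before the start, found in 22.8% of all promoters, and on the opposite strand the NF-kB form 80 bases before the start, found in 1.41% of them. A match is a description of letters and not of binding.

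Cxcl14 was lower in every oil/acetone library than in every water library of its genotype. The gene (ENSMUSG00000021508; GRCm38 chr13:56288643-56296551, minus strand) had 8413 and 7695 normalised counts in the control water libraries and 2401, 2279 and 2614 in the control oil/acetone libraries. The knockout libraries had 10040 and 9536 under water and 2493, 2217 and 2546 under oil/acetone. The groups fell into a high pair and a low trio in each genotype, with no value between them. In controls the mean was 8054 ± 508 (SD, n = 2) under water and 2431 ± 170 (SD, n = 3) under oil/acetone, 3.31 times lower. In knockouts it was 9788 ± 356 (SD, n = 2) and 2418 ± 177 (SD, n = 3), 4.05 times lower. On the log2(value + 1) scale, the fitted differences of oil/acetone minus water were -1.73 ± 0.13 (SE) in controls and -2.02 ± 0.13 in knockouts. Leaving out any 1 library kept them between -1.79 and -1.66 in controls and between -2.06 and -1.96 in knockouts. A lower level in these bulk samples can come from fewer cells that make the RNA or from less RNA per cell, which cannot be told apart.

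**Figure D1:**
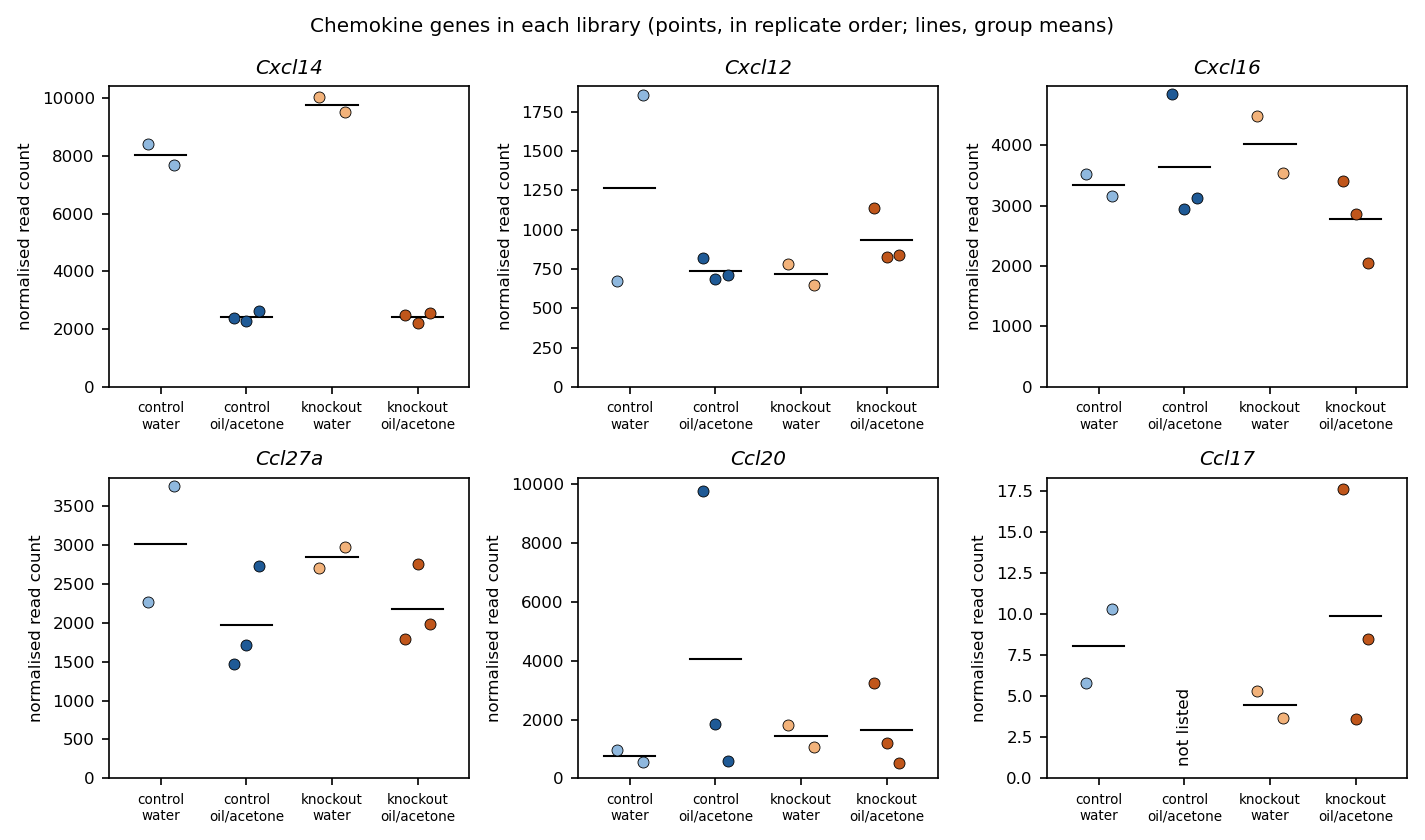
Normalised read counts (y axis, linear, starting at 0) of the 6 chemokine genes in each library (points), by group (x axis), with group means as lines. The water and oil/acetone libraries of Cxcl14 separate widely in both genotypes, while the points of Ccl20 in control oil/acetone run from 590 to 9768; Ccl17 was not listed in the control oil/acetone libraries.

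The level of Cxcl14 did not pass the test for a genotype difference under either treatment. Under oil/acetone the knockout and control libraries overlapped, with a log2 difference of -0.01 (95% interval -0.27 to 0.26; limma adjusted p = 0.985, Benjamini-Hochberg over 15958 genes). Under water both knockout libraries were above both control libraries, by 0.28 on the log2 scale (95% interval -0.04 to 0.61; limma adjusted p = 0.963). The interaction, the oil/acetone difference in knockout minus that in control, was -0.29 (95% interval -0.71 to 0.13; limma adjusted p = 0.515). From high to low, the group means were ordered knockout water, control water, control oil/acetone and knockout oil/acetone, of which the last pair differed by less than the SD of either group.

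Replicates of Cxcl14 lay close together. Its pooled SD within groups was 0.10 on the log2 scale, and only 3.76% of 11956 genes had a smaller one, against a median of 0.26. Corrected for the length of its exons (1827 bp), Cxcl14 ran at 4212 to 5495 normalised counts per kb in the water libraries, above 98.8% to 99.1% of the 15987 genes listed in all libraries. Under oil/acetone it ran at 1213 to 1431 per kb and was still above 95.9% to 97.1% of genes. Of the normalised counts per kb summed over all listed chemokine genes, Cxcl14 made up 33.0% to 51.9% in the water libraries and 8.89% to 24.4% in the oil/acetone libraries. It ranked first among the 6 genes in each of the 4 water libraries.

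**Figure D2:**
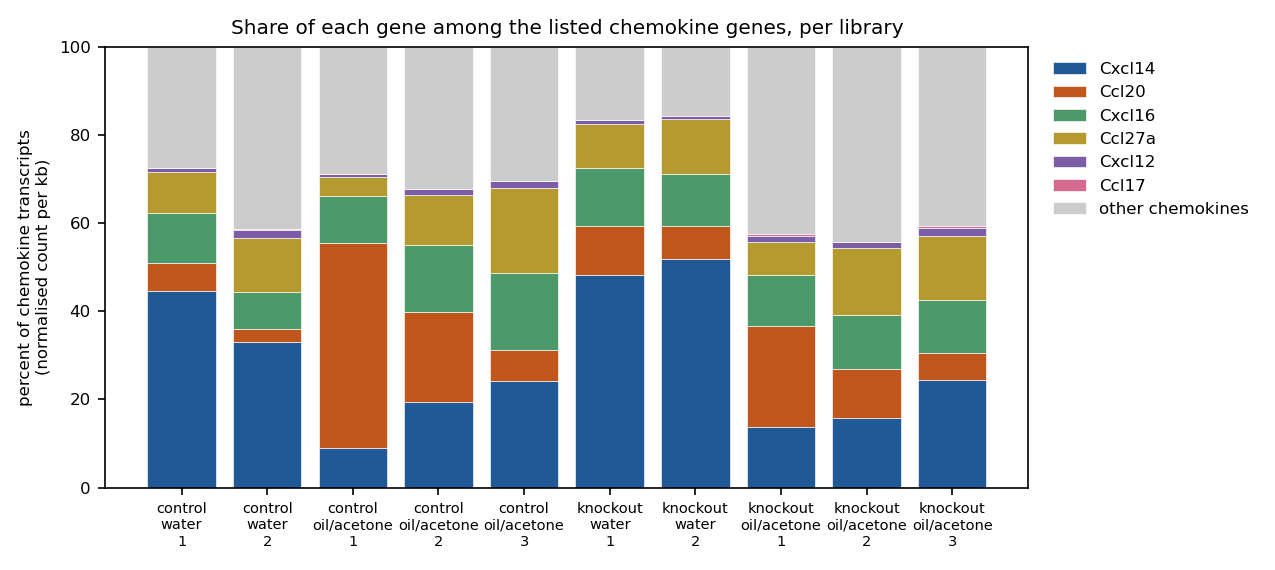
Stacked bars show, for each library (x axis), the percent of the summed normalised counts per kb of all listed chemokine genes (y axis). The bands are the 6 chemokine genes examined, with all other listed chemokines together in a last band. Among the 6 genes, Cxcl14 is the widest band in the 4 water libraries (33.0% to 51.9%), and Ccl20 reaches 46.5% in control oil/acetone replicate 1.

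The 6 genes most like Cxcl14 across the 10 libraries, by Pearson's r on the log2 scale among 11457 genes, were Hpgds (r = 0.97), Enpp5 (0.96), Cspg4, Arhgap8, Gnao1 and Pde4dip (0.95 each). Hpgds encodes a prostaglandin D synthase, and Cspg4 a membrane proteoglycan. Like Cxcl14, Hpgds was high under water, with means of 1364 in controls and 1701 in knockouts, against 657 and 619 under oil/acetone. These coefficients describe the 4 group levels, and after the group means were removed the values of r ran from -0.13 for Hpgds to 0.78 for Pde4dip. The libraries share their treatment and preparation, so no test is given.

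Ccl20 varied widely between replicates. The gene (ENSMUSG00000026166; chr1:83116766-83119167, plus strand) had 9768, 1839 and 590 normalised counts in the control oil/acetone libraries and 947 and 555 under water. In knockouts it had 3226, 1188 and 509 under oil/acetone and 1811 and 1068 under water. Replicate 1 was the highest library in each of the 4 groups, and the oil/acetone and water libraries overlapped in both genotypes. Its pooled SD within groups was 1.44 on the log2 scale, larger than that of 99.7% of genes. The log2 difference of oil/acetone minus water was 1.60 ± 1.00 (SE) in controls and -0.15 ± 1.00 in knockouts. With 1 library left out the difference ran from 0.52 (without control oil/acetone replicate 1) to 2.55 (without replicate 3) in controls, where DESeq2 on the recovered reads gave 2.44, and in knockouts its sign turned (-0.84 to 0.49).

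No genotype comparison of Ccl20 passed the test. Under oil/acetone knockout minus control was -0.81 (95% interval -2.79 to 1.16; limma adjusted p = 0.720), and without control oil/acetone replicate 1 it was 0.26. Under water both knockout libraries were above both control libraries, by 0.94 (95% interval -1.48 to 3.36; limma adjusted p = 0.963). The interaction was -1.75 ± 1.41 (SE; limma adjusted p = 0.587). With these intervals a difference of several fold was not detectable. The genes most like Ccl20 were Tmem158 (r = 0.95), Rnf126 (0.94) and Ppard (0.94), the last a nuclear receptor for fatty acids.

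Cxcl16 overlapped between treatments in controls and was lower in each oil/acetone library than in both water libraries in knockouts. The gene (ENSMUSG00000018920; chr11:70453983-70459984, minus strand) had 3533 and 3167 normalised counts in the control water libraries and 4847, 2951 and 3128 in the control oil/acetone libraries, which overlapped. In knockouts it had 4488 and 3551 under water and 3405, 2861 and 2056 under oil/acetone. The log2 differences of oil/acetone minus water were 0.09 ± 0.25 (SE) in controls and -0.56 ± 0.25 in knockouts. The interaction was -0.64 (95% interval -1.44 to 0.16; limma adjusted p = 0.471).

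Between genotypes, Cxcl16 did not pass the test either. Under oil/acetone knockout minus control was -0.39 (95% interval -0.89 to 0.12; limma adjusted p = 0.513), and under water 0.26 (95% interval -0.36 to 0.87; limma adjusted p = 0.963). Its exons share 552 bp with those of Zmynd15 on the other strand, whose level was 168 to 673 in these libraries, and reads there cannot be assigned without a stated strand setting. Within groups, Cxcl16 and Ccl20 varied together (r = 0.89 over 10 libraries after removing group means), and Rela, the NF-kB subunit p65, was among the 3 genes most like Cxcl16 (r = 0.96), with Dda1 and Phldb3 (0.96 each).

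Ccl27a was lower on average under oil/acetone in both genotypes, with overlapping libraries in both. The gene (ENSMUSG00000073888; chr4:41769467-41774247, minus strand) had 2272 and 3754 normalised counts in the control water libraries and 1474, 1712 and 2731 in the control oil/acetone libraries. The knockout libraries had 2704 and 2980 under water and 1792, 2760 and 1982 under oil/acetone, where replicate 2 lay between the water libraries. The log2 differences of oil/acetone minus water were -0.62 ± 0.29 (SE) in controls and -0.41 ± 0.29 in knockouts. Knockout minus control was 0.17 under oil/acetone (95% interval -0.41 to 0.75; limma adjusted p = 0.804) and -0.04 under water (95% interval -0.75 to 0.67; limma adjusted p = 0.996), and both signs turned when single libraries were left out. The interaction was 0.21 ± 0.41 (SE; limma adjusted p = 0.839).

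The count of Ccl27a is uncertain, because 45.0% of the 50-base stretches of its annotated transcripts also occur in transcripts of other genes, among them Ccl27b and the predicted gene Gm13306. Within groups it varied against Ccl20 (r = -0.68). The genes most like it were Stard4 (r = 0.94), a cholesterol transfer protein, Rai14 (0.91) and D7Ertd443e (0.90).

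Cxcl12 was set apart by 1 library. The gene (ENSMUSG00000061353; chr6:117168535-117181367, plus strand) had 675 and 1853 normalised counts in the control water libraries, and 822, 684 and 711 in the control oil/acetone libraries. In knockouts it had 782 and 647 under water and 1135, 827 and 838 under oil/acetone. Control water replicate 2 held the value of 1853, the highest of the 10, and all other libraries lay at or below 1135. In the same library the markers of inner root sheath and hair shaft (7 listed in all libraries) summed to 11118, against 120 to 2417 elsewhere. The 8 markers of Langerhans and dendritic cells summed to 40811, against 9309 to 33335. The 8 fibroblast markers, in contrast, were not high there, at 3867 against 3192 to 11914. Their part in the Cxcl12 value was not tested.

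The log2 difference of Cxcl12, oil/acetone minus water, was -0.60 ± 0.34 (SE) in controls and 0.38 ± 0.34 in knockouts. Without control water replicate 2 the difference in controls was 0.13, and without replicate 1 it was -1.33. Knockout minus control was 0.33 under oil/acetone (95% interval -0.35 to 1.00; limma adjusted p = 0.675), where the knockout libraries were all above the controls by a narrow margin, and -0.65 under water (95% interval -1.48 to 0.18; limma adjusted p = 0.963). Without control water replicate 2 the water difference was 0.08. The interaction was 0.98 (95% interval -0.09 to 2.04; limma adjusted p = 0.433). It passed the test only without control water replicate 1 (1.71, limma adjusted p = 0.0490), which leaves the library with 1853 counts alone in its group, and over all alternatives its adjusted p ran from 0.0490 to 0.936. The genes most like Cxcl12 were Trpm1 (r = 0.93), a channel gene of melanocytes, Cald1 (0.91), an actin-binding protein, and Pxdn (0.90), a peroxidase of the extracellular matrix. Trpm1 stood at 224 in control water replicate 2 and at 29.2 to 83.8 in the other libraries.

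Ccl17 had few reads wherever it was listed. The gene (ENSMUSG00000031780; chr8:94810453-94812036, plus strand) was not listed in the 3 control oil/acetone libraries. It had 6 and 11 reads in the control water libraries, 17, 4 and 9 in the knockout oil/acetone libraries and 6 and 3 in the knockout water libraries. The knockout groups overlapped in normalised counts (17.6, 3.59 and 8.49 under oil/acetone, 5.29 and 3.65 under water), and both control water values (5.77 and 10.3) were above both knockout water values. In the fit of genes listed in both groups, knockout minus control under water was -0.69 (limma adjusted p = 0.963).

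Per kb of exon, Cxcl14 had the highest mean of the 6 genes in 3 of the 4 groups. In the control water group Cxcl14 was highest at 4408 ± 278 (SD, n = 2), followed by Ccl27a at 1268 ± 441, Cxcl16 at 1109 ± 85.7, Ccl20 at 528 ± 195, Cxcl12 at 155 ± 102 and Ccl17 at 15.6 ± 6.24. Of the neighbours in this order, Ccl27a and Cxcl16 did not differ beyond their SD. In the control oil/acetone group Ccl20 had the highest mean, 2861 ± 3503 (SD, n = 3), but with that SD it did not stand apart from Cxcl14 at 1331 ± 93.0, and Cxcl16 (1206 ± 347) and Ccl27a (830 ± 281) followed. That mean of Ccl20 rests on replicate 1 (6874, against 1294 and 415), and without it, an alternative chosen after seeing the data, it was 855, below Cxcl14. In knockouts Cxcl14 was first under water (5357 ± 195, n = 2) and under oil/acetone (1324 ± 96.7, n = 3), where Ccl20 (1155 ± 995), Cxcl16 (918 ± 225) and Ccl27a (916 ± 216) followed and no neighbours among these 4 differed by more than the larger SD of the pair.

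Counted over the 5 genes tested, oil/acetone and water libraries did not overlap, in the lower direction, for 1 gene in controls (Cxcl14, against 12% of all 15958 genes) and 2 in knockouts (Cxcl14 and Cxcl16, against 29.2%). In the higher direction they did not overlap for 1 in knockouts (Cxcl12, against 28.8%). The choice of the genes used these contrasts, so nothing is read from these counts. Knockout against control called 0 of the 5 genes under oil/acetone (0% of all genes called) and 0 under water (0%), and the interaction called 0 (0%). In these 3 comparisons 0 of the 5 genes had an unadjusted p under 0.05, and edgeR and DESeq2 on the recovered reads also called 0. Knockout libraries lay wholly above control libraries for 3 of the 5 genes under water (Cxcl14, Cxcl16 and Ccl20), as for 16.9% of all genes, and for 1 (Cxcl12) under oil/acetone, as for 8.55%.

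**Figure D3:**
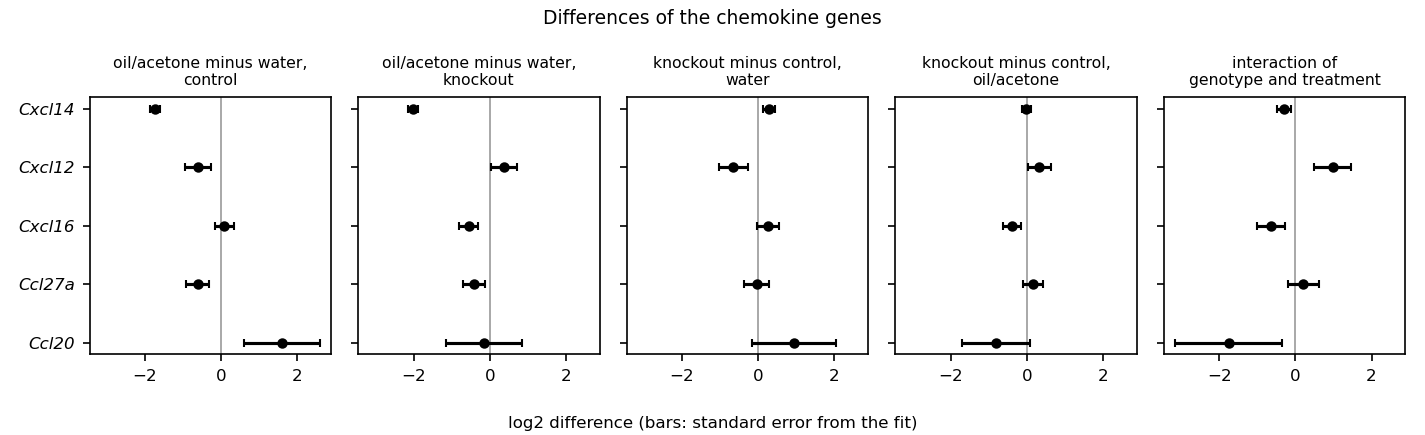
Log2 differences (x axis) of the 5 chemokine genes tested (rows) in 5 comparisons (panels), with standard errors from the limma fit as bars. Cxcl14 lies at -1.73 and -2.02 in the treatment panels and at 0.28 (water) and -0.01 (oil/acetone) in the genotype panels, and the bars of Ccl20 are the widest.

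Of the 6 receptors of these chemokines, limma called 0 in each of the 5 comparisons, as did edgeR and DESeq2. At an unadjusted p under 0.05 there were 3 for the treatment in controls, 1 in knockouts, 1 for genotype under oil/acetone, 0 under water and 2 for the interaction. Cxcr4, the receptor of CXCL12, had 309 and 289 normalised counts in the control water libraries and 243, 66.9 and 67.0 in the control oil/acetone libraries, all lower (log2 difference -1.53 ± 0.46 SE, limma adjusted p = 0.246). In knockouts its oil/acetone libraries (198, 202 and 185) were all above the water libraries (165 and 159). Ackr3, the other receptor of CXCL12, had group means of 505 to 708 and overlapping libraries under both treatments.

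Cxcr6, the CXCL16 receptor, had means of 1004 under water and 403 under oil/acetone in controls (-1.62 ± 0.62 SE, limma adjusted p = 0.317) and of 736 and 354 in knockouts (-1.05 ± 0.62 SE, limma adjusted p = 0.250). Ccr6, the CCL20 receptor, had 46.1 and 60.0 normalised counts in the control water libraries and 13.4 to 24.2 in the control oil/acetone libraries (-1.41 ± 0.44 SE, limma adjusted p = 0.259). Ccr4, the CCL17 receptor, had group means of 95.1 to 183, and Ccr10, the CCL27 receptor, of 23.6 to 34.5. The summed level of 8 T cell markers, whose cells carry several of these receptors, was 12880 to 21021 in the control water libraries and 5838 to 14470 in the control oil/acetone libraries, which overlapped. In the knockout libraries the sum was 11131 to 11986 under water and 7606 to 11525 under oil/acetone. The part of T cells in the receptor values was not tested. Without control oil/acetone replicate 1, where Cxcr4 and Cxcr6 were highest in their group (243 and 805), limma called both as lower under oil/acetone in controls (-2.14 and -2.33), 2 of 9 genes of the 6 lists described here that were then called.

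Among the other chemokines, limma called changes for oil/acetone against water in knockouts. Of 12 other CC chemokines tested 2 rose and 0 fell, where 6.74% of all genes rose and 6.69% fell, and the list median was 1.79 on the log2 scale against 0.01 for all genes. Ccl22, a ligand of CCR4 made mainly by dendritic cells and macrophages, rose from 79.4 and 56.0 normalised counts under water to 416, 525 and 696 under oil/acetone (2.98 ± 0.60 SE, limma adjusted p = 0.0187). Ccl6 rose from 24.7 and 17.0 to 224, 99.7 and 47.2 (2.26 ± 0.54 SE, limma adjusted p = 0.0287). In controls limma called 0 of the 12 (2 at an unadjusted p under 0.05, 0 with edgeR and with DESeq2) and the median was -0.43. For knockout against control, all 12 differences were positive under oil/acetone (median 0.85, against 0.02 for all genes), with 0 called by limma (3 unadjusted). Under water 11 of 12 were negative (median -1.46, against -0.01 for all genes), with 0 called by limma (4 unadjusted). Control water replicate 2 was far above replicate 1 for Ccl2 (1179 against 256), Ccl3 (123 against 12.5) and Ccl4 (150 against 12.5). Ccl5 (82.4 against 75.9) and Ccl6 (69.3 against 56.7) differed little between them. The medians that use control water thus rest in part on replicate 2. The summed level of 8 macrophage markers was 1492 to 1954 in the knockout oil/acetone libraries and 916 to 933 in the knockout water libraries, and that of 8 endothelial markers 747 to 1010 and 172 to 470. Of the 8 macrophage differences 7 were positive, but Cd68 (97.5 against 104 on average) and Adgre1 (81.8 against 81.1) changed little. The summed level of 8 Langerhans and dendritic cell markers overlapped, at 19319 to 33335 under oil/acetone and 18836 to 20092 under water. The part of these cells in the chemokine values was not tested.

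Of 11 other CXC, XC and CX3C chemokines tested 1 rose and 0 fell in knockouts (6.74% of all genes rose), with a median of 0.45. The called gene was Pf4, a platelet chemokine, at 8.08 to 14.5 normalised counts under oil/acetone and 0.882 and 1.22 under water, and it is named here after its values were seen. Limma called 0 of the 11 in controls (1 at an unadjusted p under 0.05, 0 with edgeR, 1 with DESeq2), with a median of -0.03. Xcl1, also named after its values were seen, had 596 and 660 under water and 204, 108 and 119 under oil/acetone in controls. Its knockout values were 221 and 212, and 181, 191 and 331 (interaction 2.24, limma adjusted p = 0.356). Of 14 other receptors tested 0 rose and 2 fell in knockouts, where 6.69% of all genes fell. Xcr1, the receptor of a dendritic cell subset, fell from 108 and 93.7 to 20.7, 8.98 and 11.3 (-2.88 ± 0.78 SE, limma adjusted p = 0.0399). Ccrl2, a non-signalling receptor that binds chemerin, fell from 629 and 526 to 201, 125 and 70.8 (-2.24 ± 0.50 SE, limma adjusted p = 0.0239). Control libraries gave 0 limma calls among the 14, with 8 at an unadjusted p under 0.05. There Xcr1 went from 170 and 42.2 to 35.8, 15.3 and 4.39, and Ccrl2 from 642 and 334 to 343, 116 and 194. The interaction did not pass the test for Xcr1 (-0.34, limma adjusted p = 0.911) or Ccrl2 (-1.01, limma adjusted p = 0.538).

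Of 7 proteases and inhibitors that act on chemokines, Mmp2, a gelatinase, rose in knockouts (508 to 857 on average, 0.74 ± 0.17 SE, limma adjusted p = 0.0282) and Timp3, an inhibitor of ADAM17, fell (3142 to 1125, -1.63 ± 0.47 SE, limma adjusted p = 0.0465). Adam10 and Adam17, the proteases that release CXCL16, were not called. Limma called 0 of the 7 in controls (3 at an unadjusted p under 0.05). There Timp3 also fell on average (3229 to 1526), and Mmp2 changed little (747 to 779). The interaction was not called for Timp3 (-0.37, limma adjusted p = 0.819) or for Mmp2 (0.69, limma adjusted p = 0.375). Of 19 genes of the cytokine and NF-kB signals that induce epidermal chemokines, 0 rose and 6 fell in knockouts. Of all genes 6.69% fell in that comparison, and the list median was -0.65.

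The 6 signal genes that fell in knockouts included NF-kB components and cytokine receptors. The means were 7767 under oil/acetone against 16934 under water for Tnfaip3, an NF-kB inhibitor (-1.14 ± 0.31 SE, limma adjusted p = 0.0411), and 2279 against 4755 for Nfkb2 (-1.09 ± 0.30 SE, limma adjusted p = 0.0418). They were 870 against 1547 for Il17ra, the IL-17 receptor chain (-0.83 ± 0.22 SE, limma adjusted p = 0.0383), and 946 against 1652 for Il1r1, the IL-1 receptor (-0.83 ± 0.22 SE, limma adjusted p = 0.0363). Control means were lower under oil/acetone too, at 13480 against 14844.5 for Tnfaip3 and 3330 against 4103 for Nfkb2. For Il17ra they were 1129 against 1552, and for Il1r1 1563 against 1649. Limma called 0 of the 19 in controls, and no interaction of these genes passed the test (limma adjusted p 0.403 to 0.599). The summed level of 8 outer root sheath and infundibulum markers was 96421 to 214012 in the knockout oil/acetone libraries and 70758 to 79443 in the knockout water libraries. Most of that sum was Krt17 and Krt79 (knockout oil/acetone means 70326.5 and 70301.6). Of the 8 differences 6 were positive, while Lgr5 (234 against 364 on average) and Lgr6 (1198 against 1760) were lower under oil/acetone. The part of these markers in the values of the signal genes was not tested. Of the 69 genes tested in the 6 lists, limma called 13 in knockouts (edgeR 12, DESeq2 20), where 13.4% of all genes were called. In controls it called 0 of the 69, where 0.0627% of all genes were called. There 19 of the 69 had an unadjusted p under 0.05, and edgeR called 0 and DESeq2 3. For knockout against control limma called 0 of the 69 under oil/acetone (12 unadjusted, edgeR 0, DESeq2 1) and 0 under water (10 unadjusted, 0 with edgeR and with DESeq2). The interaction called 0 with limma (19 unadjusted, edgeR 0, DESeq2 4), and 3 without control water replicate 1. All 10 calls described with values by the naming rule were lost when either knockout water library was left out, and the remaining one is then assumed to vary like the other groups. Without knockout oil/acetone replicate 2 or 3, 10 and 9 of the 10 were lost, and without control oil/acetone replicate 2, 6 were lost, and edgeR did not call Timp3.

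**Figure D4:**
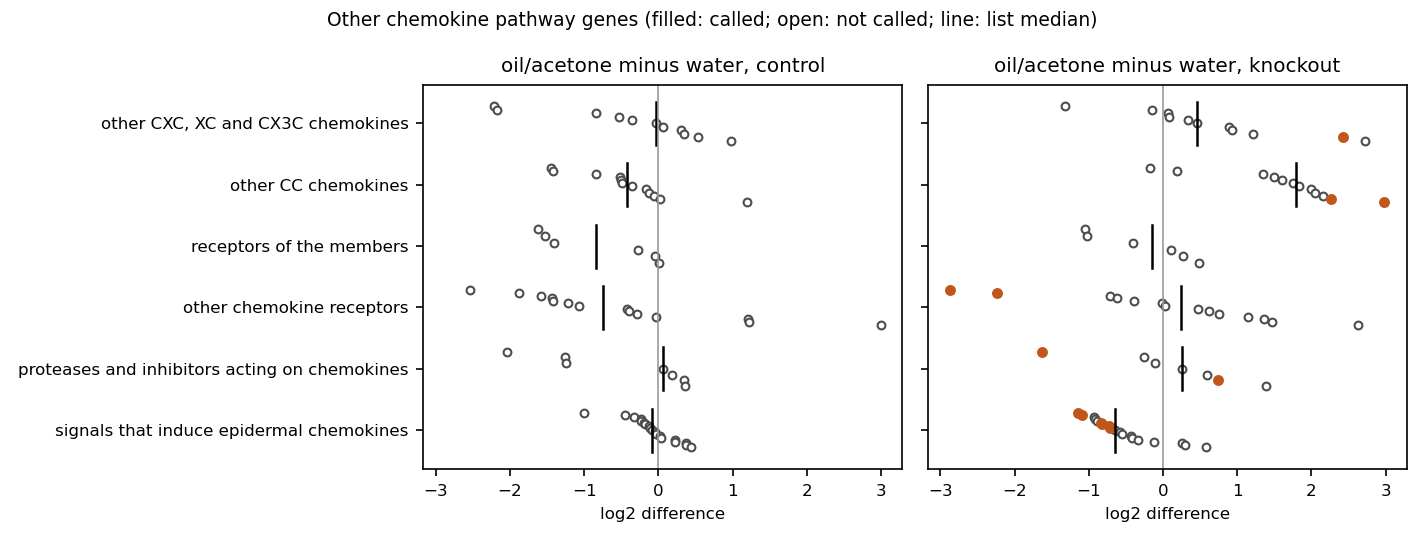
Log2 differences of oil/acetone minus water (x axis) for the tested genes of 6 lists (rows), in controls (left) and knockouts (right), with filled points for genes called by limma and lines at list medians. The other CC chemokines centre on -0.43 in controls, where the water replicates differed widely for some of them, and on 1.79 in knockouts. Filled points appear in the right panel only.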

How the data were processed

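RNA was sequenced in 10 libraries, each deposited as a file of its own. The submitters' processing notes name GRCm38, DESeq2 1.26.0, Trimmomatic 0.38 and featureCounts 2.0.0. Aligner, strand setting and annotation release: not given in the sources used here. The deposited values are a normalised signal per gene, read counts that the authors divided by a size factor. In every library 100% of values were whole multiples of 1 step (tolerance 0.1 read), which recovered reads for the count tests. Precision is limited by the number of libraries, and PCR reads are not independent molecules.

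All 17983 identifiers matched the GENCODE M21 annotation. A gene not listed in a file was treated as missing, and 15987 genes were listed in all 10. Values were divided by median-of-ratios factors (0.995 to 1.004), and 15958 genes reached 10 in 2 libraries or more and were tested. The test was limma 3.58.1 in R 4.3.3 (lmFit and contrasts.fit, with the trend option of eBayes) on log2(value + 1). All libraries entered 1 model with a mean for each of the 4 groups, tests were two-sided, and the threshold was a Benjamini-Hochberg adjusted p of 0.05. Differences on this scale understate changes of low genes. The fit was also run on simulated data, but not for oil/acetone against water in knockouts. Its outcome is not given here, and nothing about the calls is read from it. Alternatives were other pseudocounts (0.5 and 5), no filter, values as deposited, TMM factors, only the groups compared, genes listed in both groups compared, a replicate block, each library left out, and edgeR 4.0.16 and DESeq2 1.42.0 on recovered reads. Levels between genes were compared per kb of the union of exons.

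The 6 chemokines and the gene lists were chosen with earlier results of these data known, and 1 gene of the list of signals is not reported here and was left out of the list. Genes of the lists were named where called, up to 4 in each direction per list and comparison, if either group mean reached 50, and receptors of the 6 chemokines were named always. The genes most like a chemokine were the 6 (Cxcl14) or 3 (others) with the highest Pearson's r, among genes whose mean over all libraries reached 50, without predicted genes.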

Additional observations from a re-analysis of the deposited data

Results flagged for a closer look

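Of the genes named, 2 had every library of one group on one side and every library of the other on the opposite side, and in each the interaction did not pass the test. Cxcr4 was lower under oil/acetone in controls and higher in knockouts (interaction 1.79 on the log2 scale, limma adjusted p = 0.375). Ccl6 was lower under oil/acetone in controls and higher in knockouts (interaction 2.76, limma adjusted p = 0.356). Other genes given above were not searched, among them Ccl5, which had the same pattern (interaction 2.80, limma adjusted p = 0.356). Of all 15958 genes tested, 379 (2.37%) had treatment effects opposite in the genotypes with no overlap.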

How the results depend on the processing

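Groups of 2 and 3 libraries, a treatment that coincides with Y-linked transcripts, and genes not listed in every file limit all comparisons. For the 5 chemokines tested, limma called 0 in knockout against control in 20 of 20 alternatives under each treatment, and the interaction count ran from 0 to 1 with libraries left out. The control difference of Cxcl12 ran from -1.33 to 0.13 with libraries left out. Signs of genotype differences turned only with a library left out: under oil/acetone they ran from -0.054 to 0.053 for Cxcl14, from -0.015 to 0.43 for Ccl27a and from -1.76 to 0.26 for Ccl20, and under water from -1.38 to 0.077 for Cxcl12 and from -0.40 to 0.32 for Ccl27a. The interaction of Ccl27a ran from -0.15 to 0.57. Counts of called list genes moved as follows. In controls (0) they were 1 with a replicate block and 3 with DESeq2 (0 to 9 with a library left out). In knockouts (13) they were 24 with only the groups compared and 20 with DESeq2 (0 to 18 with a library left out). For knockout against control under oil/acetone (0) DESeq2 called 1, and for the interaction (0) it called 4 (0 to 3 with a library left out).

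Over all genes, oil/acetone against water called 10 in controls (58 with a replicate block, 352 with DESeq2, 7 with edgeR, 6 to 470 with a library left out) and 2143 in knockouts (3865 with only the groups compared, 3610 with DESeq2, 9 to 3132). Knockout against control under oil/acetone called 0 (unadjusted p under 0.05 in 1908 genes; 3 with only the groups compared, 168 with DESeq2, 0 with edgeR, 0 to 50). The same comparison under water called 0 (795 unadjusted, 6 with DESeq2, 0 with edgeR, 0 to 1), and the interaction 0 (1897 unadjusted, 169 with DESeq2, 0 with edgeR, 0 to 74). Same-numbered libraries did not deviate together throughout (r of deviations -0.10 to 0.45, most of them above 0), so the numbers were not taken as pairs. The block changed no call of the 5 chemokines, but over all genes it called 58 in controls, as given above, and 2766 in knockouts for oil/acetone against water. The causes were not tested.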
